A study of Homo sapiens with 8 samples.

Results

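Box C/D small nucleolar RNAs were examined in 2 ovarian cancer cell lines held at 37 °C or exposed to 46 °C. The members were all probes of the bead array whose annotated gene symbol starts with SNORD, 178 of 47231 probes, which carry 176 of 20046 gene symbols because SNORD107 and SNORD58C have 2 probes each. Of these, 125 passed a filter on dim probes (mean normalized log2 intensity over the 8 arrays above the 40th percentile, 6.16) and were tested among 28338 probes. The other 53 were not tested.

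Box C/D small nucleolar RNAs are short nucleolar RNAs that bind fibrillarin, NOP56, NOP58 and SNU13 and guide the methylation of ribose in ribosomal RNA by base pairing. A few of them, U3 (the SNORD3 genes), U13 (SNORD13), U14 (the SNORD14 genes) and U22 (SNORD22), act in the cleavage or folding of the ribosomal RNA precursor. Most human box C/D RNAs are cut out of the introns of host genes, often genes of ribosomal proteins or long noncoding RNAs whose spliced transcripts often code for no protein, while U3 and U13 are transcribed from promoters of their own.

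Total RNA of A2780 and SKOV3, established cell lines from human ovarian cancers, was measured on Illumina BeadChips. Its 4 groups, with 2 arrays each, were A2780 at 37 °C (control), A2780 at 46 °C (hyperthermia), SKOV3 at 37 °C (control) and SKOV3 at 46 °C (hyperthermia), with no further agent or genotype given. Exposure length, collection time and whether the arrays of a group came from separate cultures are not in the labels, so p-values measure only the spread between these arrays, which may be technical. The labelling kit amplifies RNA from poly(A) tails, which mature box C/D RNAs lack, so mature RNA, host intron and tailed forms cannot be told apart here.

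Median raw intensities lay between 114 and 144 on the 8 arrays, and the upper quartile between 181 and 317, highest on the second A2780 array at 37 °C. Between 36.9% and 41.9% of all probes per array were above background (the 99th percentile of a normal distribution at the mode of the signals). Of the 9 ovarian carcinoma markers examined, PAX8, KRT7, KRT8, MUC16 and WT1 were not above background on any array. ERBB2 was above it on all 8 arrays, EPCAM on 7, KRT18 on the 4 SKOV3 arrays and KRT19 on 2 arrays. Of 10 markers of other cell types with a probe, PTPRC, CD3E, CDH5 and VWF were not above background on any array. PECAM1 was above it on 1 array, and the macrophage marker CD68 on all 8. The log2 changes of CD68 at 46 °C were 0.13 in A2780 and 0.48 in SKOV3 and did not pass. Other CD68 probes lay between -0.33 and 0.46 in A2780 and between -0.08 and 0.01 in SKOV3. The fibroblast marker DCN was above background on the 4 A2780 arrays alone and at least 53.9-fold lower in SKOV3 at 37 °C, COL1A2 on the same 4 arrays, and LUM on these and 1 SKOV3 array. At 46 °C in A2780 the fibroblast marker COL1A1, above background on 7 arrays, rose by 0.86 (limma adjusted p = 0.00351). The brightest probes of COL1A2, LUM and DCN had -0.45, -0.04 and 0.16 without passing. Another COL1A2 probe had -0.85 and another LUM probe 0.12, and other DCN probes lay between 0.07 and 0.44. Whether these signals came from the lines themselves or from other cells was not tested.

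Above-background signal differed widely among the members. Between 72 and 89 of the 178 SNORD probes were above background per array, from 40.4% to 50% of them. Over all arrays, 59 probes were above background on all 8, 47 on 1 to 7 and 72 on none. The 59 detected throughout were SNORD1A, SNORD3A, SNORD3D, SNORD4A, SNORD6, SNORD10, SNORD11, SNORD11B, SNORD12, SNORD12C, SNORD13, SNORD14A, SNORD14B, SNORD14C, SNORD14D, SNORD15B, SNORD16, SNORD17, SNORD21, SNORD25, SNORD27, SNORD30, SNORD31, SNORD32A, SNORD33, SNORD34, SNORD35A, SNORD35B, SNORD36A, SNORD36C, SNORD48, SNORD49A, SNORD51, SNORD52, SNORD55, SNORD56, SNORD57, SNORD58B, SNORD65, SNORD68, SNORD69, SNORD73A, SNORD74, SNORD76, SNORD80, SNORD83B, SNORD84, SNORD87, SNORD88B, SNORD89, SNORD96A, SNORD96B, SNORD99, SNORD100, SNORD101, SNORD103A, SNORD104, SNORD110 and SNORD139. Their normalized log2 intensities ran from 6.48 to 11.89.

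Detection differed by class of RNA. Of the 9 probes for RNAs that act in precursor processing, 7 were above background on all arrays and none was below it on all. Of the 25 probes for the imprinted SNORD112, SNORD113 and SNORD114 genes on chromosome 14, whose RNAs have few known ribosomal targets, 23 were above background on no array. The exceptions were SNORD114-2, above it on 7 arrays, and SNORD114-7, above it on 1. All 13 probes of the imprinted cluster on chromosome 15, the SNORD107, SNORD108, SNORD109, SNORD115, SNORD116 and SNORD64 genes that lie in the region deleted in Prader-Willi syndrome, were above background on none. Of the other 131 probes, 52 were above background on all arrays, 43 on some and 36 on none.

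**Figure D1:**
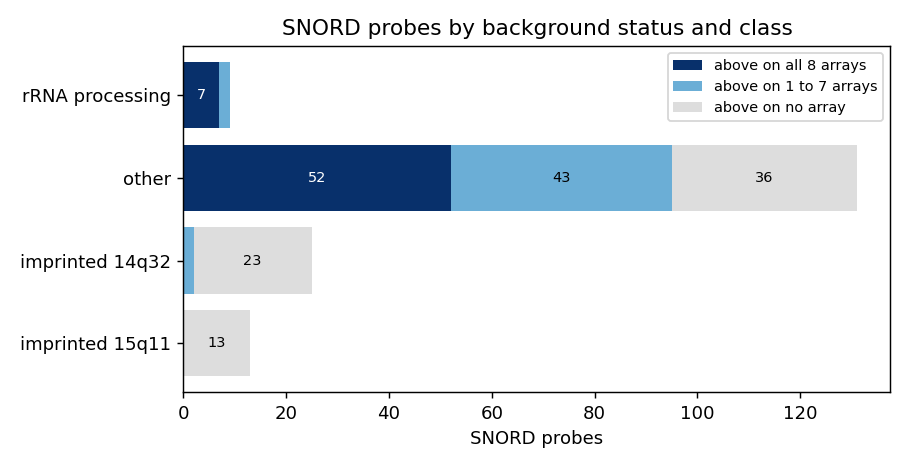
Number of SNORD probes (horizontal axis) by class, split by the number of the 8 arrays on which the probe was above background. The 25 probes of the chromosome 14 cluster and the 13 of the chromosome 15 cluster are nearly all in the lowest category, and 7 of the 9 precursor-processing probes are in the highest.

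Some SNORD probes crossed the background between temperatures. The matching shares over all probes were not computed, so these counts have nothing to be set against. In A2780, 6 probes (SNORD2, SNORD18A, SNORD41, SNORD53, SNORD59B and SNORD71) were above background on neither array at 37 °C and on both at 46 °C, and 4 (SNORD7, SNORD18C, SNORD60 and SNORD94) the reverse. In SKOV3, 6 probes (SNORD3C, SNORD38B, SNORD41, SNORD42B, SNORD53 and SNORD59B) gained and 3 (SNORD4B, SNORD50B and SNORD60) lost detection on both arrays. SNORD41, SNORD53 and SNORD59B gained, and SNORD60 lost, detection in both lines. In A2780, 65 probes were above background on both arrays at both temperatures and 81 on none, against 62 and 79 in SKOV3.

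The first comparison asked which SNORD probes differed between 46 °C and 37 °C within each line. A larger share of SNORD probes than of all tested probes was called, mainly as higher. In A2780, 27 of the 125 tested members passed (limma, Benjamini-Hochberg adjusted p under 0.05 over all 28338 probes), 21.6% against 3.5% of all tested probes. Of the 27, 22 were higher and 5 lower at 46 °C, where 1.81% of all tested probes were called higher and 1.69% lower. In SKOV3, 23 passed, 18.4% against 2.28% of all tested probes, with 19 higher and 4 lower, against 1.18% and 1.1% of all. Since the filter acts on the mean over both temperatures, the test was also run on all probes. In that run 27 and 24 of the 178 members passed in A2780 and SKOV3, against 2.27% and 1.46% of all 47231 probes.

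The tested members' median log2 change was 0.156 in A2780, against -0.0114 over all tested probes, and 0.162 in SKOV3, against -0.00794. Positive changes were found for 80 of 125 members in A2780 and 82 in SKOV3. In A2780 the changes ran from -0.91 to 2.88, and in SKOV3 from -0.75 to 2.49. With arrays scaled to equal medians in place of quantile normalization, the median of all probes moved to -0.20 in A2780. The A2780 calls among members then became 10 higher and 19 lower, where 22.7% of all tested probes were called, 270 higher and 6159 lower. With no scaling between arrays they became 9 higher and 23 lower, where 27% of all tested probes were called, 190 higher and 7473 lower. The members' counts of 29 and 32 of 125 are near these shares. In SKOV3, 13 members were called with equal medians and 9 with no scaling, all higher, against 1.17% and 0.822% of all tested probes. The members' median in A2780 under equal medians was -0.03, which is 0.17 above that of all probes. Equal medians ended 12 of the A2780 calls, those for SNORD11, SNORD11B, SNORD14C, SNORD16, SNORD21, SNORD25, SNORD33, SNORD43, SNORD56, SNORD57, SNORD74 and SNORD110 (adjusted p from 0.0605 to 0.931). In SKOV3 they ended 10, those for SNORD22, SNORD24, SNORD33, SNORD35A, SNORD36C, SNORD41, SNORD51, SNORD57, SNORD60 and SNORD104 (adjusted p from 0.0694 to 0.279).

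Single arrays changed these counts. In A2780 they fell most without either array at 46 °C. In SKOV3 they fell most without either array at 37 °C or the second array at 46 °C. The share called among all tested probes fell in each of these fits as well. The calls for SNORD3A, SNORD3C, SNORD3D, SNORD12, SNORD13, SNORD46 and SNORD95 held in both lines under every alternative run, as did those for SNORD60 and SNORD87 in A2780 and SNORD43 and SNORD56 in SKOV3.

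The largest increase in each line belonged to an RNA with a promoter of its own, though SNORD46, given below, rose more than some of them. All 4 such members on the array rose in both lines, SNORD13, SNORD3A, SNORD3C and SNORD3D, with a median log2 change of 2.26 in A2780 and 2.12 in SKOV3. SNORD13 encodes U13, which pairs with the precursor of the small-subunit RNA and guides its acetylation. Its probe read 6.78 and 6.54 in A2780 at 37 °C, 9.59 and 9.50 in A2780 at 46 °C, 7.88 and 7.42 in SKOV3 at 37 °C and 9.32 and 9.97 in SKOV3 at 46 °C (normalized log2 intensity). All arrays at 46 °C were above all arrays at 37 °C. The log2 change was 2.88 ± 0.20 (SE, n = 2 arrays a group; limma adjusted p = 4.16e-07) in A2780, 7.38-fold, and 2.00 ± 0.20 (adjusted p = 3.13e-05) in SKOV3, 3.99-fold.

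U3, the RNA of the SNORD3 genes, is needed for the first cleavages that release the small-subunit RNA. The SNORD3A probe read 8.71 and 8.56 in A2780 at 37 °C, 11.13 and 10.85 at 46 °C, and in SKOV3 7.87 and 7.90 at 37 °C and 10.16 and 10.09 at 46 °C. The groups did not overlap in either line, and the log2 changes were 2.36 ± 0.14 (limma adjusted p = 4.87e-08) and 2.24 ± 0.14 (adjusted p = 1.22e-07), 5.14-fold and 4.72-fold. For SNORD3D, intensities of 9.81 and 9.41 at 37 °C and 11.89 and 11.66 at 46 °C in A2780 stood beside 8.70 and 8.40, and 11.11 and 10.98, in SKOV3. It rose by 2.16 ± 0.16 (limma adjusted p = 9.61e-07) and 2.49 ± 0.16 (adjusted p = 2.48e-07). Again no array at 46 °C overlapped those at 37 °C of the same line.

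SNORD3C read 7.43 and 7.28 at 37 °C and 9.20 and 8.98 at 46 °C in A2780, and 6.20 and 6.19, then 8.05 and 8.24, in SKOV3. Its log2 changes were 1.74 ± 0.14 (limma adjusted p = 1.64e-06) and 1.95 ± 0.14 (adjusted p = 5.61e-07). In SKOV3 at 37 °C it was not above background on either array, so the rise there was at least 3.18-fold, taken against the higher of the probe's own signal and the lowest signal above background. The U3 copies are near-identical in sequence, so their probes may read the same RNA and are not separate evidence. No SNORD3B or SNORD118 probe was among the members.

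The other RNAs of precursor processing moved unevenly. SNORD14C, a U14 copy in an intron of HSPA8, read 7.66 and 7.84 at 37 °C and 8.63 and 8.44 at 46 °C in A2780, and 8.37 and 8.25, then 9.29 and 9.46, in SKOV3. It rose by 0.78 ± 0.14 (limma adjusted p = 0.00456) and by 1.06 ± 0.14 (adjusted p = 0.000404), with no overlap between temperatures. The A2780 call was lost without the first array at 46 °C (adjusted p between 0.0562 and 0.309 for the 13 calls that this removed). The U14 copies SNORD14A and SNORD14B, both in RPS13, had log2 changes of 0.09 and 0.31 in A2780 and 0.56 and 0.36 in SKOV3, and SNORD14D had -0.35 and -0.01. None of these 3 passed in either line. SNORD22, which encodes U22, read 6.85 and 7.17, then 6.43 and 6.56, in A2780, and 7.13 and 7.13, then 6.47 and 6.48, in SKOV3. At 46 °C it was above background on 1 of 2 arrays in each line. It fell in SKOV3 (-0.65 ± 0.14, limma adjusted p = 0.0216) and had -0.51 ± 0.14 in A2780 (adjusted p = 0.0588). The SKOV3 call for SNORD22 was lost without any 1 of the 4 SKOV3 arrays, with adjusted p of the calls so lost between 0.0502 and 0.349.

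**Figure D2:**
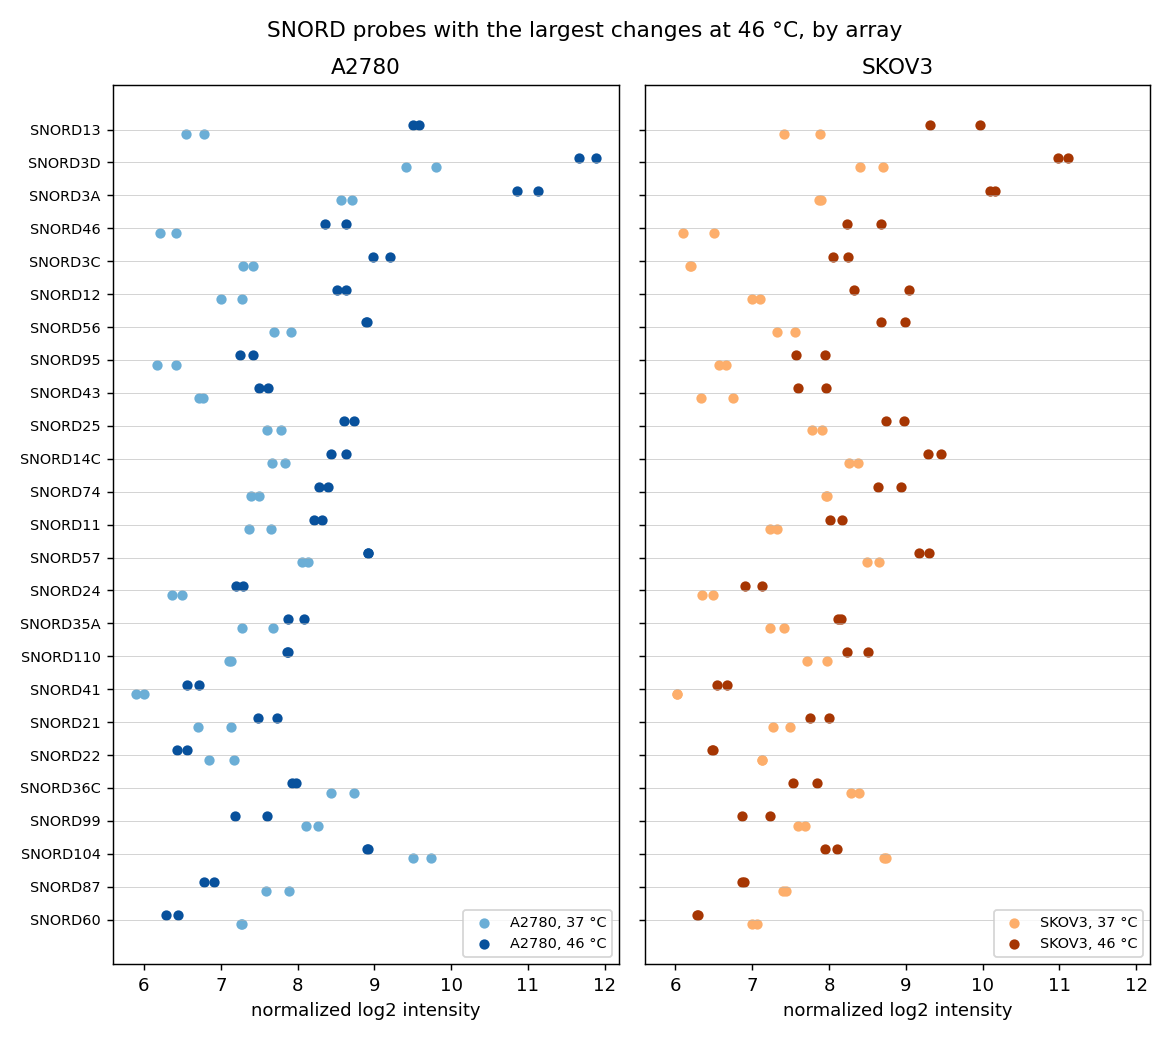
Normalized log2 intensity (horizontal axis) of the 25 SNORD probes with the largest change at 46 °C among those called, 1 point per array, with A2780 on the left and SKOV3 on the right. Points at 46 °C lie to the right of those at 37 °C for SNORD13 and the SNORD3 probes by 1.74 to 2.88 on the mean, and to the left for SNORD60, SNORD87, SNORD104, SNORD99, SNORD36C and SNORD22.

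Among the guides of ribose methylation, SNORD46 rose most. It guides modification of the large-subunit RNA. Its probe read 6.20 and 6.41 in A2780 at 37 °C, 8.63 and 8.35 at 46 °C, 6.51 and 6.10 in SKOV3 at 37 °C and 8.24 and 8.68 at 46 °C. It was above background on 1 of 2 arrays in each line at 37 °C and on both at 46 °C, and the temperatures did not overlap. The log2 changes were 2.18 ± 0.18 (limma adjusted p = 2.73e-06) and 2.16 ± 0.18 (adjusted p = 4.55e-06), each measured from a 37 °C level at the edge of background.

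SNORD12, a guide for the large-subunit RNA in the noncoding host ZFAS1, read 7.28 and 7.005 at 37 °C and 8.63 and 8.52 at 46 °C in A2780, and 7.10 and 6.999, then 8.32 and 9.04, in SKOV3. All arrays at 46 °C were above those at 37 °C, by 1.43 ± 0.19 (limma adjusted p = 0.00045) and 1.63 ± 0.19 (adjusted p = 0.000166). SNORD95, in an intron of RACK1, the gene of a ribosome-bound scaffold protein, read 6.17 and 6.41, then 7.43 and 7.25, in A2780, and 6.65 and 6.56, then 7.56 and 7.95, in SKOV3. It was above background on 1 of 2 A2780 arrays at 37 °C and rose by 1.04 ± 0.15 (limma adjusted p = 0.00107) and 1.15 ± 0.15 (adjusted p = 0.000527).

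The introns of NOP56 and NOP58, genes of box C/D core proteins, hold 5 tested members. SNORD56, a guide for the small-subunit RNA, read 7.69 and 7.92 at 37 °C and 8.90 and 8.90 at 46 °C in A2780, and 7.55 and 7.32, then 8.68 and 8.99, in SKOV3. It rose by 1.09 ± 0.15 (limma adjusted p = 0.000511) and 1.40 ± 0.15 (adjusted p = 5.86e-05). SNORD57, a small-subunit guide in the same gene, read 8.06 and 8.13, then 8.92 and 8.92, in A2780, and 8.66 and 8.50, then 9.17 and 9.30, in SKOV3, a rise of 0.82 ± 0.13 (limma adjusted p = 0.00186) and 0.66 ± 0.13 (adjusted p = 0.012). The third, SNORD110, rose by 0.75 ± 0.14 in A2780 (limma adjusted p = 0.00727) and had 0.53 ± 0.14 in SKOV3 (adjusted p = 0.0768). SNORD11 of NOP58 rose by 0.75 ± 0.14 (limma adjusted p = 0.00694) and 0.82 ± 0.14 (adjusted p = 0.00436), and SNORD11B by 0.49 in A2780 (adjusted p = 0.0485), with 0.49 in SKOV3 (adjusted p = 0.0617). All 5 had higher values at 46 °C on every array of a line. The A2780 calls for SNORD110 and SNORD11 were lost without the second array at 37 °C or either array at 46 °C, that for SNORD11B without any 1 of the 8 arrays, and the SKOV3 calls for SNORD11 and SNORD57 without either array at 37 °C or the second at 46 °C, with adjusted p up to 0.351 among the calls these arrays removed.

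Guides in the noncoding hosts SNHG1 and GAS5 included single members that rose. SNORD25 of SNHG1 read 7.60 and 7.79 at 37 °C and 8.60 and 8.74 at 46 °C in A2780, and 7.91 and 7.78, then 8.74 and 8.97, in SKOV3. It rose by 0.98 ± 0.14 (limma adjusted p = 0.000824) and 1.01 ± 0.14 (adjusted p = 0.000707), with no overlap. SNORD74 of GAS5 read 7.49 and 7.39, then 8.39 and 8.28, in A2780, and 7.98 and 7.95, then 8.63 and 8.94, in SKOV3. It rose by 0.89 ± 0.14 (limma adjusted p = 0.00154) and 0.82 ± 0.14 (adjusted p = 0.00376), the latter call being lost without either SKOV3 array at 37 °C or the second at 46 °C (adjusted p up to 0.349 among the calls so lost).

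In ribosomal protein genes, SNORD43 of RPL3 read 6.72 and 6.77, then 7.61 and 7.49, in A2780, and 6.76 and 6.33, then 7.59 and 7.96, in SKOV3. It was above background on 1 of 2 SKOV3 arrays at 37 °C and rose by 0.80 ± 0.16 (limma adjusted p = 0.0128) and 1.23 ± 0.16 (adjusted p = 0.000504). SNORD24 of RPL7A, a large-subunit guide above background on 1 of 2 arrays at 37 °C in each line, rose by 0.81 ± 0.13 (limma adjusted p = 0.00292) from 6.49 and 6.36 to 7.28 and 7.20 in A2780, and by 0.61 ± 0.13 (adjusted p = 0.0274) from 6.49 and 6.35 to 6.91 and 7.13 in SKOV3. SNORD33 and SNORD35A of RPL13A had 0.50 in A2780 each, called for SNORD33 (adjusted p = 0.0453) and not for SNORD35A (adjusted p = 0.0996), and rose by 0.63 and 0.82 in SKOV3 (adjusted p = 0.0136 and 0.00912). SNORD21 of RPL5 and SNORD16 of RPL4 rose in A2780, by 0.69 ± 0.17 (limma adjusted p = 0.0343) and 0.52 (adjusted p = 0.0351), and had 0.50 and 0.12 in SKOV3 without passing. The A2780 calls for SNORD43 and SNORD21 were lost without the second array at 37 °C or either array at 46 °C, those for SNORD16 and SNORD33 without any 1 of the 4 A2780 arrays, and that for SNORD24 without the first array at 46 °C. SNORD21, SNORD16 and SNORD33 also lost theirs when either SKOV3 array at 37 °C left the shared fit, with adjusted p up to 0.351 among all calls so lost. In SKOV3, SNORD24, SNORD33 and SNORD35A lost theirs without either array at 37 °C or the second at 46 °C, SNORD33 also without the first at 46 °C, and SNORD24 also without either A2780 array at 46 °C (adjusted p up to 0.349).

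SNORD41, in an intron of the import receptor gene TNPO2, read 5.90 and 6.01 in A2780 at 37 °C and 6.72 and 6.56 at 46 °C, and 6.02 and 6.02, then 6.54 and 6.67, in SKOV3. It was above background only at 46 °C, so its rise was at least 1.18-fold in A2780 (limma adjusted p = 0.00748) and at least 1.09-fold in SKOV3 (adjusted p = 0.0274). SNORD59B of ATP5F1B, an ATP synthase gene, was at least 1.37-fold higher at 46 °C in A2780 (log2 change 0.64, adjusted p = 0.0261), and SNORD51 of the elongation factor gene EEF1B2 rose by 0.61 ± 0.13 in SKOV3 (adjusted p = 0.0255). In A2780 the call for SNORD41 was lost without the first array at 46 °C and that for SNORD59B without any 1 of the 4 arrays (adjusted p up to 0.351 among the calls so lost). In SKOV3 the call for SNORD41 was lost without either array at 37 °C or the second at 46 °C, and that for SNORD51 without any 1 of the 4 (adjusted p up to 0.349).

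The members SNORD22, SNORD36C, SNORD60, SNORD87, SNORD99 and SNORD104 fell in at least 1 line, and apart from SNORD36C their hosts are noncoding. SNORD60 of SNHG19 read 7.27 and 7.28 in A2780 at 37 °C, 6.28 and 6.44 at 46 °C, and 7.06 and 6.999, then 6.28 and 6.29, in SKOV3. At 46 °C it was not above background on any array, so the decrease was at least 1.74-fold in A2780 (log2 change -0.91 ± 0.13, limma adjusted p = 0.000591) and at least 1.46-fold in SKOV3 (-0.75 ± 0.13, adjusted p = 0.00392). SNORD104 of SNHG25 read 9.51 and 9.74, then 8.92 and 8.91, in A2780, and 8.74 and 8.72, then 7.95 and 8.11, in SKOV3. It fell by 0.71 ± 0.13 (limma adjusted p = 0.00727) and 0.70 ± 0.13 (adjusted p = 0.00999), without overlap.

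SNORD36C of RPL7A read 8.73 and 8.44, then 7.98 and 7.93, in A2780, and 8.29 and 8.39, then 7.53 and 7.84, in SKOV3. It fell by 0.63 ± 0.15 (limma adjusted p = 0.0298) and 0.65 ± 0.15 (adjusted p = 0.031). SNORD87 of SNHG6 fell by 0.89 ± 0.14 in A2780 (limma adjusted p = 0.00158), from 7.59 and 7.89 to 6.92 and 6.78, and had -0.53 ± 0.14 in SKOV3 (adjusted p = 0.0621). SNORD99 of SNHG12 fell by 0.79 ± 0.16 in A2780 (limma adjusted p = 0.0143), from 8.26 and 8.11 to 7.60 and 7.19, and had -0.59 ± 0.16 in SKOV3 (adjusted p = 0.0935). In A2780, SNORD104's call was lost without the second array at 37 °C or either at 46 °C, SNORD99's without the second at 46 °C, and SNORD36C's without the first at 37 °C, either at 46 °C or either SKOV3 array at 37 °C (adjusted p up to 0.351). In SKOV3, SNORD60, SNORD104 and SNORD36C lost theirs without either array at 37 °C, SNORD104 and SNORD36C also without the first at 46 °C, and SNORD36C also without either A2780 array at 46 °C (adjusted p up to 0.349).

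The next question was whether the lines differed in these changes. No SNORD probe passed for the difference of the changes (0 of 125 by limma, against 0.0706% of all tested probes), 6 had an unadjusted p under 0.05, and the smallest adjusted p was 0.470. The largest difference was SNORD13's, whose change was 0.89 ± 0.28 smaller in SKOV3 on the log2 scale (adjusted p = 0.470). Across alternatives this count was 0 as well. Of the 30 members called in either line, 20 were called in both, 17 higher and 3 lower, which is 74.1% of the A2780 calls and 87.0% of the SKOV3 calls. Called in 1 line were 7 in A2780 and 3 in SKOV3, and none went opposite ways. Of the 125 tested members, 97 had the same sign in both lines. The matching shares over all tested probes were not computed, so these counts have nothing to be set against. Over these 125 probes the changes in the lines correlated at Pearson r = 0.916 and Spearman rho = 0.797, as a description across probes that share arrays and labelling, with r = 0.584 over all tested probes.

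**Figure D3:**
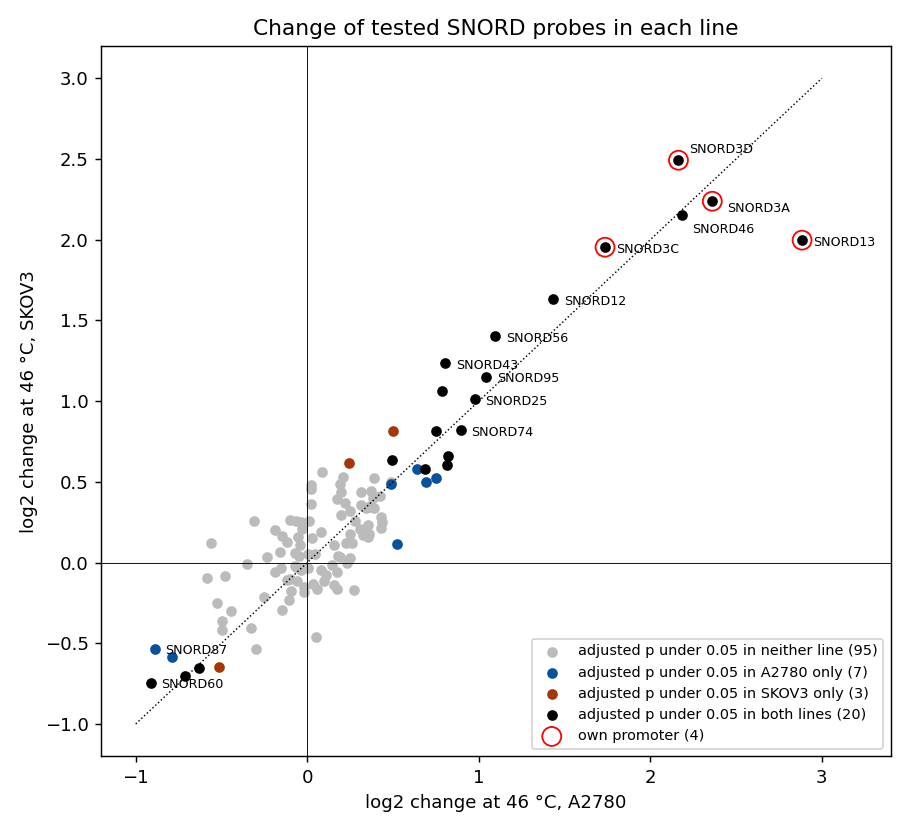
Log2 change at 46 °C of the 125 tested SNORD probes in A2780 (horizontal axis) and SKOV3 (vertical axis), coloured by the line in which the probe passed, with the 4 RNAs that have promoters of their own circled and equal change as a dotted line. The 20 probes called in both lines lie along that line, and SNORD13 lies below it at 2.88 and 2.00.

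A host was assigned to 173 members in 77 genes by position, and 5 had none, the 4 U3 and U13 probes and SNORD32B. By kind of host, 36 tested members in noncoding hosts had 3 higher and 4 lower calls in A2780 and 3 and 3 in SKOV3. The 37 tested members in ribosomal protein genes had 6 higher and 1 lower, then 5 and 1. The 47 tested members in other genes had 9 higher and 0 lower, then 7 and 0. Over all tested probes, 1.81% were called higher and 1.69% lower in A2780, and 1.18% and 1.1% in SKOV3. Differences between members of a host were not tested, and values are given side by side.

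In 13 hosts with at least 2 tested members and at least 1 call, 46 members were tested. All tested members were called in A2780 for 2 of these hosts, NOP56 and NOP58, and in SKOV3 for 0. In ZFAS1, SNORD12 had log2 changes of 1.43 and 1.63 in A2780 and SKOV3, SNORD12B 0.23 and 0.00, and SNORD12C 0.05 and -0.46. In GAS5, whose other tested members did not pass at 46 °C, SNORD74 had 0.89 and 0.82 and SNORD80 -0.50 and -0.42.

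RPL7A held calls in both directions in both lines, and SNHG1 in SKOV3. In SNHG1, SNORD25 had 0.98 and 1.01 and SNORD22 -0.51 and -0.65, while SNORD27, SNORD28, SNORD30 and SNORD31 lay between -0.48 and 0.48 in both lines without passing. In RPL7A, SNORD24 had 0.81 and 0.61, SNORD36C -0.63 and -0.65, SNORD36A 0.04 and 0.05, and SNORD36B -0.03 and -0.04. In RACK1, SNORD95 had 1.04 and 1.15 and SNORD96A 0.33 and 0.17.

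**Figure D4:**
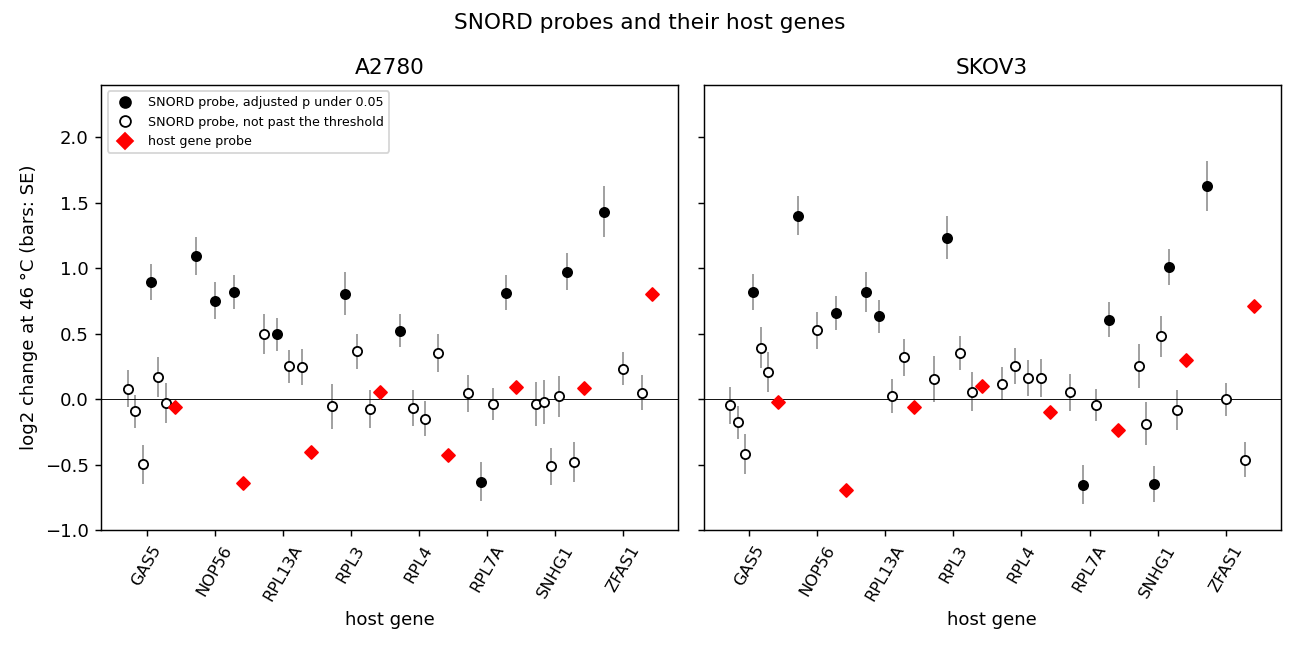
Log2 change at 46 °C (vertical axis, bars are the standard error) of SNORD probes in the host genes with at least 3 tested members, at least 1 call and a tested probe of their own, which is drawn as a diamond. Single members such as SNORD12 in ZFAS1 (1.43 and 1.63) stand above the others of their host, and the NOP56 diamond (-0.64 and -0.69) lies below its members.

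The spliced host transcripts were set beside the members through the host probe with the highest mean. A tested host probe was found for 99 tested members, in 53 hosts, of which 1 was called higher and 4 lower in A2780 and 2 and 4 in SKOV3. Among all tested probes the shares called higher and lower were 1.81% and 1.69% in A2780, and 1.18% and 1.1% in SKOV3. Of the 19 called members with such a host in A2780, the host was called in the same direction for 1, in the opposite direction for 4 and in neither for 14. In SKOV3 these counts were 1, 3 and 11 of 15. In both lines the opposite cases lay in NOP56 and TNPO2 alone, and the NOP56 probe was counted for each of its called members. Over the 99 members, the member's and the host's changes correlated at r = -0.07 in A2780 and 0.01 in SKOV3, as a description over probes of which many share a host.

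ZFAS1 rose with SNORD12, by 0.80 ± 0.14 (limma adjusted p = 0.00457) and 0.71 ± 0.14 (adjusted p = 0.0133), though another ZFAS1 probe had 0.02 and 0.24. NOP56, in contrast to its snoRNAs, fell by 0.64 ± 0.14 in A2780 (limma adjusted p = 0.0176) and by 0.69 ± 0.14 in SKOV3 (adjusted p = 0.0135), with other probes between -0.21 and 0.03 in A2780 and between -0.56 and -0.38 in SKOV3. TNPO2 fell by 0.67 ± 0.13 (limma adjusted p = 0.0115) and 0.62 ± 0.13 (adjusted p = 0.0236), while SNORD41 within it rose. HSPA8 had -0.15 and -0.14 and SNHG1 0.09 and 0.30, none passing, and the GAS5 probe was not above background on any array. SNHG12 fell in SKOV3 (-1.07 ± 0.21, adjusted p = 0.0122), the line in which SNORD99 did not pass. RACK1, SNHG16, SNHG19, SNHG25 and SNHG29 had no listed probe, so the hosts of SNORD95, SNORD60 and SNORD104 were not analysed here.

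Because members of these hosts rose, the 250 bases before each host's start were searched for the inverted repeats of the heat shock element, TTCNNGAA and GAANNTTC. Each reads the same on both strands, and neighbouring matches may overlap. Of 27305 promoters in the RefSeq table, 11.7% hold at least 1 of them, against 8 of 60 SNORD hosts with a promoter there (13.3%) and 3 of 12 hosts of members called higher at 46 °C (25%). The 3 were HSPA8, GAS5 and ZFAS1. Promoters of 3 hosts are shown to set matched and unmatched cases side by side, from RefSeq on GRCh38.p14, in the direction of the gene, with matches in capitals. HSPA8 lies on chr11:123062137-123062386 (minus strand), with matches that begin 230, 225, 55 and 50 bases before the start. ZFAS1 lies on chr20:49278392-49278641 (plus strand), with 1 match 18 bases before the start. NOP56 lies on chr20:2652382-2652631 (plus strand) and holds no match, which says only that these letters are not in this window. A match is a description of sequence, and no binding was measured.
HSPA8: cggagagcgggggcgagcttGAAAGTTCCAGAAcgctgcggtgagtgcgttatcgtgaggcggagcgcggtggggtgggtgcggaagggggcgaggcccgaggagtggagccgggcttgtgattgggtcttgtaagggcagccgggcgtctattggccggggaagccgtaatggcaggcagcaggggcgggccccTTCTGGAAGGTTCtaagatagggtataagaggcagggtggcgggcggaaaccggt
ZFAS1: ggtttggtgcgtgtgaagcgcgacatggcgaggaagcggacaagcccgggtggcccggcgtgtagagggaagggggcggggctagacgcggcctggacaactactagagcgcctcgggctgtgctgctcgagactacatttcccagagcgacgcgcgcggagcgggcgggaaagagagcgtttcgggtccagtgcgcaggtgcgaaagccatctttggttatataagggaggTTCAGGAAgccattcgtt
NOP56: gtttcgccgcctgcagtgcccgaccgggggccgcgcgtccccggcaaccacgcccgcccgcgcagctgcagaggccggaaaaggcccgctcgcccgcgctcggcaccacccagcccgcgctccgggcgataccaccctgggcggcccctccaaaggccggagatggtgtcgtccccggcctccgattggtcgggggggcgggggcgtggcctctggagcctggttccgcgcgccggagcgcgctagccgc

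The proteins that build and process box C/D particles were compared through their own probes. All 25 genes examined with a probe were above background on all 8 arrays. Of the core protein genes FBL, NOP56, NOP58, SNU13 and RRP9, NOP56 alone passed at 46 °C, as lower in both lines, and the medians of the 5 were -0.10 and -0.08. Of 8 assembly factor genes with a probe, among them NUFIP1, ZNHIT3, ZNHIT6, RUVBL1 and RUVBL2, 0 passed in either line. Of 12 genes of snoRNA processing and transport, among them PHAX, TGS1, NOLC1, DBR1 and XRN2, 0 passed, with medians of -0.13 and -0.02. Among all tested probes, 3.5% were called in A2780 and 2.28% in SKOV3, and counts from so few genes do not stand apart from these shares.

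The last comparison set SKOV3 against A2780 at 37 °C. Here 18 members passed, 14.4% against 21.9% of all tested probes, 6 higher and 12 lower in SKOV3, against 10.7% and 11.3% of all. The U3 probes were lower in SKOV3, SNORD3A by -0.75 ± 0.14 (limma adjusted p = 0.00101), SNORD3D by -1.06 ± 0.16 (adjusted p = 0.000223) and SNORD3C, which was not above background in SKOV3, at least 1.84-fold (adjusted p = 1.93e-05), while SNORD13 was higher by 0.99 ± 0.20 (adjusted p = 0.00218). SNORD80 of GAS5, with 11.29 and 11.33 in A2780 and 10.60 and 10.13 in SKOV3 at 37 °C, was lower by -0.94 ± 0.15 (limma adjusted p = 0.000346), and SNORD74 of the same host higher by 0.52 ± 0.14 (adjusted p = 0.0129). The arrays of the lines did not overlap for any of these.

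Of the remaining calls between lines, SNORD16, SNORD110, SNORD14C and SNORD57 were higher in SKOV3 by 0.96, 0.72, 0.56 and 0.48. SNORD104, SNORD17, SNORD36A, SNORD1A, SNORD65, SNORD99 and SNORD58B were lower, with log2 differences from -0.95 to -0.48, and SNORD54, not above background in SKOV3 at 37 °C, was at least 1.42-fold lower. The count fell most without the first SKOV3 array at 37 °C, where the share called among all tested probes fell as well. Removing that array ended the calls for SNORD13, SNORD14C, SNORD1A, SNORD54, SNORD57, SNORD58B, SNORD74 and SNORD99 (adjusted p from 0.0541 to 0.14). The other 3 arrays at 37 °C ended 4 or 5 calls each, SNORD110's, SNORD16's, SNORD17's, SNORD80's, SNORD104's and the U3 probes' not among them (adjusted p up to 0.25). With arrays scaled to equal medians, 32 passed, 1 higher and 31 lower, where 31.6% of all tested probes were called, 1143 higher and 7819 lower. With no scaling 36 passed, all lower, where 34.9% of all tested probes were called, 804 higher and 9073 lower. The median of all probes was -0.17 and -0.29 in these fits.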

How the data were processed

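RNA of 4 groups with 2 samples each was measured on 1-colour Illumina BeadChips. The deposited raw table holds intensity values per probe that were handled in BeadStudio, per the submitters' processing notes, and a deposited table of log2 values that the authors had normalized between arrays was used as an alternative. Its values share 1 median (7.003) on all arrays and follow the log2 of the raw intensity with slopes of 0.952 to 1.09 for signals above 500, from which the log2 scale was taken. They are not centred by gene. Groups follow the sample titles. Intensities were background-corrected with normexp (offset 50) and quantile-normalized, and log2 values were tested with limma 3.58.1 in R 4.3.3 over all 8 arrays (4 residual degrees of freedom). Benjamini-Hochberg adjustment ran over the 28338 probes above the 40th percentile of mean intensity, and the steps were tested on simulated data. Array number limits the precision. Probe symbols came from the platform annotation (30113 probes with 1 symbol, 8 with several, 17110 unlisted), and all 178 members matched RefSeq. Hosts were the smallest RefSeq gene that contains the member. The planned restriction to the same strand could not be applied without strand in that table. The members and lists were chosen with earlier results of these data known. Named were the 25 called members with the largest change at 46 °C, all members with promoters of their own and all members above background on every array. Other calls are named after their values were seen. Same-numbered arrays deviated together with correlations of 0.09 in A2780 and -0.19 in SKOV3, so numbers were not treated as pairs. Alternatives covered the values, background, scaling, filter, probe choice, prior, block, fit and each array left out. One host gene is not reported here.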

Additional observations from a re-analysis of the deposited data

How the results depend on the processing

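For A2780 at 46 °C, counts of called members lay between 14 and 26 with each array left out. For SKOV3 at 46 °C, counts lay between 11 and 25 with each array left out, and were 13 with median scaling and 9 with no scaling between arrays. For SKOV3 against A2780 at 37 °C, counts also moved in either direction with arrays left out. They were 32 and 36 with median scaling and with no scaling. The share called among all tested probes also changed with the array left out. Differences between the lines' changes gave 0 calls throughout. With the replicate number as a block the counts were 23, 20 and 17, and a crossed block for SKOV3, chosen after seeing the data, gave 29, 25 and 19. The same-numbered arrays were not shown to be pairs. Of 27, 23 and 18 calls, 9, 9 and 6 held in all alternatives that kept the probe. A normexp offset of 16 ended the A2780 calls at 46 °C for SNORD11B, SNORD16, SNORD21, SNORD33, SNORD36C, SNORD43, SNORD99 and SNORD104. In SKOV3 it ended those for SNORD33, SNORD36C, SNORD51, SNORD57 and SNORD104. Their limma adjusted p lay between 0.0502 and 0.113. With this offset 2 lower calls remained in each line. The authors' log2 values ended the A2780 calls for SNORD11B, SNORD21 and SNORD59B and the SKOV3 calls for SNORD24 and SNORD41. Directions reversed for SNORD16 in A2780 (-0.030 with median scaling, -0.14 with no scaling) and SNORD33 in A2780 (-0.071 with no scaling). Between lines they reversed for SNORD57 (-0.043 and -0.16), SNORD14C (-0.047 with no scaling) and SNORD74 (-0.048 with no scaling). These scalings move the median of all probes, which is contained in each value. The 116 members within 10% of the filter value are near background, where a change is measured poorly, and 2 arrays a group limit every test.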
